A study of Homo sapiens with 4 samples.

Results

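The Polycomb repressive complex genes described here are 10 genes that encode core or accessory subunits, namely EZH1, EZH2, EED, SUZ12, JARID2, MTF2, PHF19, BMI1, RING1 and RNF2. They were matched by gene symbol, and all 10 were found among the 15357 genes of the deposited RNA-seq tables. All 10 also passed the filter on low counts and stood among the 11955 genes tested. The study asked how gene expression changes when CHD7, an ATP-dependent chromatin remodeller, is depleted in RKO cells, a human colorectal cancer line. The vector group was 2 samples of RKO cells infected with a lentivirus expressing control shRNA, and the shCHD7_2 group was 2 samples of RKO cells infected with a lentivirus expressing a short hairpin RNA against the CHD7 mRNA. All 4 samples were stable infections grown in Eagle's minimum essential medium with 10% fetal bovine serum, and polyadenylated RNA was captured on oligo-dT beads. The knockdown rests on 1 shRNA sequence in 1 cell line, and nothing states that the replicates came from separate cultures, so the p-values measure only the spread between these samples, which may be technical.

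Polycomb proteins keep genes silent through 2 kinds of complex that act on histones. Polycomb repressive complex 2 (PRC2) methylates histone H3 through its catalytic subunit, EZH2 or EZH1, which works only when bound to EED and SUZ12, and accessory subunits such as JARID2, MTF2 and PHF19 guide it to chromatin. Polycomb repressive complex 1 (PRC1) places ubiquitin on histone H2A through the ligases RING1 and RNF2, paired with a partner such as BMI1. In colorectal epithelium and its cancers these genes are studied for their part in proliferation and in the silencing of differentiation genes, and BMI1 is also known from intestinal stem cell work.

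Depth was similar in the 4 samples, with between 15734679 and 16068650 estimated counts in total, and each Polycomb gene held between 376 and 2923 counts in a sample. Replicates of a group differed beyond sampling noise, with a chi-square per degree of freedom over genes of 3.87 in vector and 5.89 in shCHD7_2. CHD7 itself, the target of the hairpin, had 1326 and 1436 counts in vector and 890 and 800 in shCHD7_2, and fell with a log2 fold change of -0.74 (SE 0.088, adjusted p = 4.2e-06). Adjusted p-values throughout are from edgeR's quasi-likelihood F test, corrected over all tested genes by the Benjamini-Hochberg method. Of 12 epithelial and intestinal markers, 8 were listed and 4 tested. EPCAM, KRT8, KRT18 and CDX2 were present, while CDH1, KRT20, LGR5 and CHGA were at or near 0. The epithelial markers summed to between 75.2 and 81.2 FPKM in vector and between 81.6 and 90.3 in shCHD7_2. Of the 4 tested, 0 passed at an adjusted p under 0.05, with log2 fold changes between -0.18 and 0.16. The 5 listed of 12 fibroblast markers summed to between 4.07 and 4.50 FPKM over the 4 samples. Both that were tested passed with at least a 1.5-fold change, in opposite directions. ACTA2, a smooth muscle actin, rose (log2 fold change 0.82, adjusted p = 0.026) and TAGLN, an actin-binding protein, fell (-0.72, adjusted p = 0.0032). Of 13 blood and endothelial markers 7 were listed and only CD68 passed the filter. That list summed to between 496 and 530 FPKM in vector and between 603 and 612 in shCHD7_2, nearly all of it CD68. CD68 did not pass the test (log2 fold change 0.20, adjusted p = 0.062). The part of these levels in the results below was not tested. In bulk RNA, fewer cells expressing a gene and less RNA per cell cannot be told apart.

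Of the 10 Polycomb genes, 2 passed the test (adjusted p under 0.05), and both were lower in shCHD7_2. They were BMI1 and RNF2, which both belong to PRC1. Among all genes tested, 11.5% passed, 4.94% higher and 6.54% lower. None of the 10 passed with a change of at least 1.5-fold, the threshold used in the study, which 2.88% of all tested genes did. At an unadjusted p under 0.05, 3 of the 10 passed, the third being JARID2. On the CPM scale (counts divided by library size, with library sizes scaled by TMM), the samples of the 2 groups did not overlap for 8 of the 10, 3 higher and 5 lower in shCHD7_2, while over all tested genes this was so for 53.7%. The fold changes were spread evenly around 0, with 5 above and 5 below, and their median was -0.03 on the log2 scale beside 0.00056 over all tested genes. Their median absolute size was 0.14 beside 0.13.

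**Figure D1:**
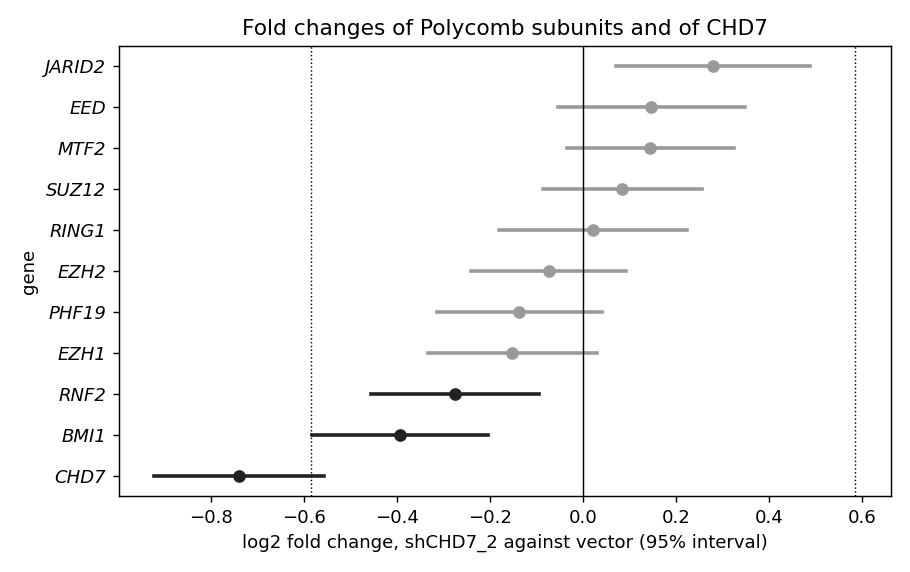
Log2 fold change of each Polycomb gene and of CHD7, shCHD7_2 against vector, from edgeR (points) with 95% intervals (bars). Black marks an adjusted p under 0.05, grey the others, and dotted lines mark a 1.5-fold change. BMI1 and RNF2 are the only black points among the Polycomb genes, and all 10 intervals lie within the dotted lines, where the largest absolute bound is 0.583.

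FPKM, which divides by gene length, allows levels to be compared between genes. In vector samples PHF19 was highest (45.3 ± 1.83 FPKM, SD, n = 2), followed by EZH2 (40.5 ± 1.15), BMI1 (38.9 ± 0.495) and SUZ12 (38.8 ± 1.49). The 2 samples of BMI1 and of SUZ12 overlapped, so these neighbours did not differ beyond their spread. The level of BMI1 leaves out reads assigned to COMMD3-BMI1, a read-through gene described below (8.46 and 13.76 FPKM in vector). The place of BMI1 in this order therefore depends on how reads were divided between them. RING1 (28.6 ± 3.64), RNF2 (19.9 ± 0.66), MTF2 (13.1 ± 0.085), EED (11.9 ± 0.40), EZH1 (11.3 ± 0.20) and JARID2 (4.50 ± 0.24) followed, each pair of neighbours apart in both samples. In shCHD7_2, SUZ12 had the highest mean (42.6 ± 4.42 FPKM), then PHF19 (41.8 ± 2.62), EZH2 (39.1 ± 0.81) and BMI1 (30.6 ± 4.84). The 2 samples of SUZ12 (45.7 and 39.5) overlapped those of PHF19 (39.9 and 43.6) and of EZH2 (39.7 and 38.5). SUZ12 therefore did not differ from either beyond their spread. The lower 6 kept the same order. By mean FPKM over all samples PHF19 stood at percentile 83.5 of the 11955 genes tested and JARID2 at percentile 25.2. MTF2 (53.0) and EED (49.5) lay on either side of the middle of the tested genes.

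**Figure D2:**
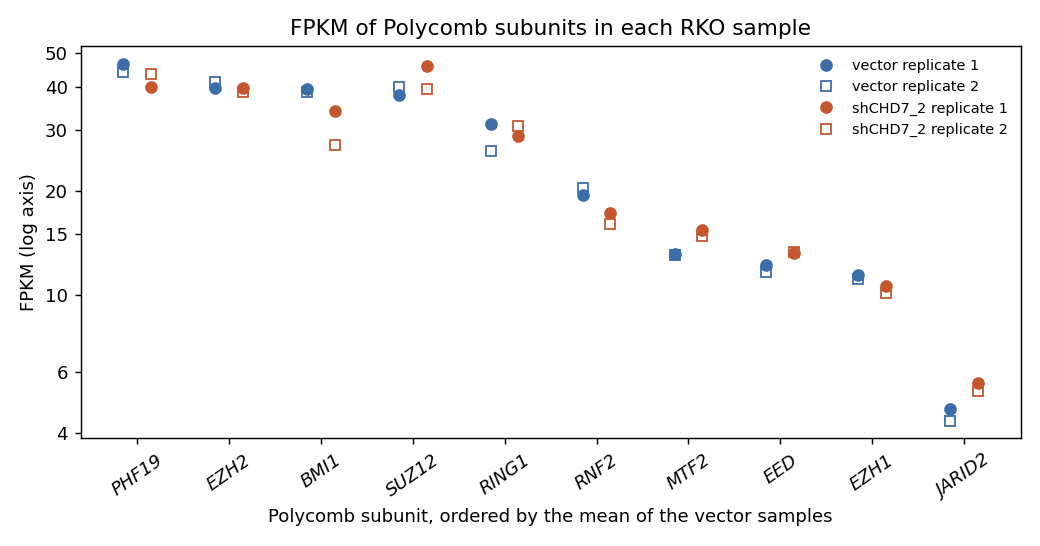
FPKM of each Polycomb gene in each sample, on a log axis, with vector in blue, shCHD7_2 in orange, filled circles for replicate 1 and open squares for replicate 2. The levels run from 46.6 for PHF19 to 4.33 for JARID2, both in vector, and BMI1 and RNF2 are the genes whose shCHD7_2 points lie furthest below their vector points.

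The catalytic subunits of PRC2 did not pass the test. EZH2, the methyltransferase that predominates in dividing cells, lies on the minus strand at chr7:148807383-148884321 (GRCh38, GENCODE 29), and its CPM were 105.5 and 109.9 in vector and 103.6 and 101.0 in shCHD7_2. The 2 groups lay next to each other without overlapping, and the log2 fold change was -0.07 (SE 0.080, 95% interval -0.24 to 0.09, adjusted p = 0.61). EZH1, its less active paralogue (chr17:42700275-42745049, minus strand), had 51.4 and 50.6 CPM in vector and 46.7 and 45.1 in shCHD7_2. Both shCHD7_2 samples were lower than both vector samples, with a log2 fold change of -0.15 (SE 0.088, interval -0.33 to 0.03, adjusted p = 0.29). The ratio of EZH2 to EZH1 in FPKM was 3.48 and 3.72 in vector and 3.74 and 3.82 in shCHD7_2. An exact permutation test of 2 against 2 samples cannot go below p = 0.333, the value this ratio had.

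The obligate partners of the methyltransferases gave values on the other side of 0. EED, which binds methylated histone H3 and stimulates the enzyme (chr11:86244544-86278813, plus strand), had 27.96 and 27.62 CPM in vector and 30.37 and 31.15 in shCHD7_2. Its groups did not overlap, and its log2 fold change was 0.15 (SE 0.097, interval -0.05 to 0.35, adjusted p = 0.37). SUZ12, the scaffold of the complex (chr17:31937018-32001045, plus strand), had 155.3 and 165.1 CPM in vector and 182.3 and 157.5 in shCHD7_2. Only replicate 1 of shCHD7_2 stood above the vector samples, and the log2 fold change of 0.08 (SE 0.082, interval -0.09 to 0.26, adjusted p = 0.57) became -0.03 without it. For EZH2, EZH1, EED and SUZ12 the intervals include 0 and lie inside a 1.5-fold change either way.

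Of the accessory subunits, JARID2, a DNA-binding cofactor without demethylase activity (chr6:15246296-15522040, plus strand), had the largest positive value. It held 396 and 376 counts in vector and 492 and 465 in shCHD7_2, or 25.5 and 23.8 CPM against 30.7 and 29.1. Both shCHD7_2 samples were higher, with a log2 fold change of 0.28 (SE 0.10, interval 0.07 to 0.49), but the adjusted p of edgeR's quasi-likelihood test was 0.077. With library totals in place of TMM it passed (0.32, adjusted p = 0.037). That was the only 1 of 9 alternative settings in which JARID2 passed, and DESeq2's Wald test gave an adjusted p of 0.30. MTF2 and PHF19 are both Polycomb-like proteins, alternative partners of PRC2 that bind DNA and methylated histone H3. MTF2 (chr1:93079235-93139081, plus strand) had 55.6 and 54.7 CPM in vector and 62.6 and 59.2 in shCHD7_2, a log2 fold change of 0.14 (SE 0.086, adjusted p = 0.31). PHF19 (chr9:120855652-120894896, minus strand) had 80.5 and 76.0 CPM in vector and 68.5 and 73.6 in shCHD7_2, a log2 fold change of -0.14 (SE 0.086, adjusted p = 0.33). Neither passed the test. The ratio of MTF2 to PHF19 in FPKM was 0.283 and 0.297 in vector and 0.386 and 0.339 in shCHD7_2, higher in both knockdown samples, with an exact permutation p of 0.333, the smallest that 2 against 2 samples can give.

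The ligases of PRC1 gave unlike values. RNF2, also known as RING1B (chr1:185045364-185102608, plus strand), had 859 and 902 counts in vector and 760 and 727 in shCHD7_2, or 55.3 and 57.1 CPM against 47.4 and 45.6. Both shCHD7_2 samples were lower by more than the spread within either group, and RNF2 fell with a log2 fold change of -0.27 (SE 0.087, interval -0.46 to -0.09, adjusted p = 0.043). That call lay close to the threshold and was lost in 7 of 9 alternative settings, with adjusted p between 0.044 and 0.22, and in 3 of the 4 fits that left out 1 sample. RING1, the paralogue of RNF2 (chr6:33208495-33212722, plus strand), had 49.8 and 41.6 CPM in vector and 44.5 and 48.3 in shCHD7_2. Its groups overlapped and its vector samples differed more from each other than the group means did. The log2 fold change of RING1 was 0.02 (SE 0.098, interval -0.18 to 0.22, adjusted p = 0.92). RNF2 to RING1 in FPKM was 0.624 and 0.784 in vector and 0.599 and 0.518 in shCHD7_2, lower in both knockdown samples. The nearest samples of the groups, at 0.624 and 0.599, were close. The exact permutation p was 0.333, the smallest that 2 against 2 samples can give.

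BMI1, the PRC1 partner that stimulates the RING1 and RNF2 ligases and is known as a repressor of the CDKN2A locus, had the largest change of the 10. CDKN2A held between 1 and 4 counts in a sample and was too low to be tested. BMI1 held 2021.19 and 2024.75 estimated counts in vector and 1747.46 and 1401.06 in shCHD7_2. In CPM this was 130.2 and 128.3 against 109.0 and 87.8, so that both knockdown samples were lower and stood far apart from each other. BMI1 fell with a log2 fold change of -0.39 (SE 0.091, interval -0.58 to -0.20, adjusted p = 0.0059, edgeR's quasi-likelihood test). Without replicate 2 of shCHD7_2, the lowest sample, the log2 fold change was -0.25 (adjusted p = 0.083) and BMI1 no longer passed. It passed in 7 of 9 alternative settings, with adjusted p between 0.0055 and 0.23, and was lost where no filter on low values was used. Its counts were not whole numbers in any of the 4 samples, which among the 10 genes was otherwise the case only for MTF2, in 1 sample.

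Fractional counts arise where a read fits more than 1 gene and is divided between them. BMI1 lies on the plus strand at chr10:22321211-22331484, and upstream of it on the same strand lies COMMD3 (chr10:22315974-22320308), which encodes a subunit of an endosomal sorting complex. A read-through gene, COMMD3-BMI1 (chr10:22316388-22329542), starts in COMMD3 and is spliced into the exons of BMI1. It was the only read-through or pseudogene relative of the Polycomb genes looked for that the tables list. In GENCODE 29 the read-through transcript COMMD3-BMI1-205 has 14 exons and 1419 bases, of which 5 exons overlap COMMD3-201 and 9 overlap BMI1-201. All of its bases lie in one or the other, 29.5% in COMMD3-201 and 70.5% in BMI1-201. All 978 coding bases of BMI1-201 are also coding bases of the read-through, and 2428 of the 3428 exonic bases of BMI1-201, its own start and its 3′ UTR, lie outside COMMD3-BMI1-205.

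**Figure D3:**
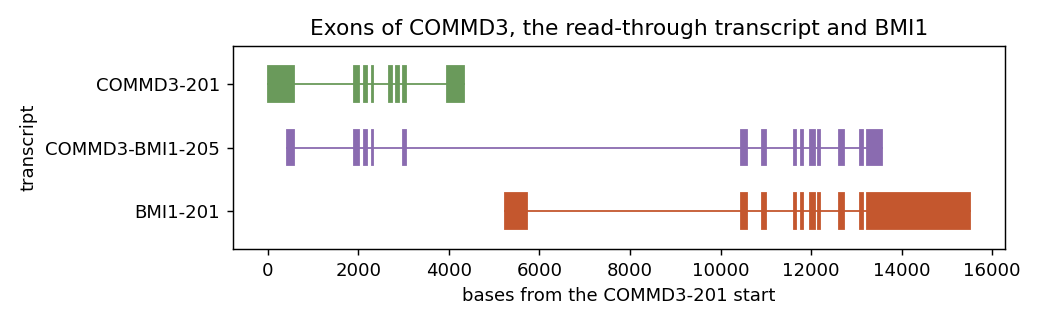
Exons (boxes) and introns (lines) of COMMD3-201, the read-through COMMD3-BMI1-205 and BMI1-201 in GENCODE 29, drawn to scale in bases from the start of COMMD3-201. The read-through takes 5 exons from COMMD3 and 9 from BMI1, and BMI1 starts 5237 bases downstream of COMMD3.

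What marks the read-through is its junction, where exon 5 of COMMD3-BMI1-205 (ending at chr10:22319004-22319018) is joined to exon 6 (starting at chr10:22326431-22326445). The 30 bases around it are shown because a read that crosses them fits the read-through but no COMMD3 or BMI1 transcript of GENCODE 29. COMMD3 bases are in lower case and those of the BMI1 exon in capitals.
COMMD3-BMI1 junction: atggaacaattacagGATTTTTTATCAAGC
These 30 bases occur in 3 read-through transcripts of GENCODE 29 and in 0 transcripts of BMI1 or COMMD3. The lengths that the deposited counts and FPKM imply were between 3265 and 3274 bases for BMI1 and between 3224 and 3232 for COMMD3-BMI1, longer for the read-through than the 1419 bases of COMMD3-BMI1-205. In RefSeq COMMD3-BMI1 ends at 22331484, where BMI1 ends in GENCODE 29, so annotations differ in how much of the 3′ end of BMI1 they give to the read-through.

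The read-through moved the other way from BMI1. COMMD3-BMI1 held 429.9 and 712.75 estimated counts in vector and 762.79 and 939.06 in shCHD7_2, or 27.7 and 45.2 CPM against 47.6 and 58.9. Both shCHD7_2 samples were higher, though the vector samples differed from each other more widely than for any of the Polycomb genes relative to their level. COMMD3-BMI1 rose with a log2 fold change of 0.55 (SE 0.14, interval 0.25 to 0.84, adjusted p = 0.014), and without vector replicate 1 this was 0.23 (adjusted p = 0.32). It passed in 6 of 9 alternative settings. COMMD3 had 40.5 and 41.0 CPM in vector and 47.5 and 45.7 in shCHD7_2, a log2 fold change of 0.19 (adjusted p = 0.17) that did not pass.

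The 2 genes together changed less than either alone. Summed, BMI1 and COMMD3-BMI1 held 2451.09 and 2737.5 counts in vector and 2510.25 and 2340.12 in shCHD7_2. In CPM the sums were 158 and 173 against 157 and 147, with means of 166 ± 11 and 152 ± 6.99 (SD, n = 2). The nearest samples of the groups, at 158 and 157 CPM, were almost level, and the summed gene had a log2 fold change of -0.13 (adjusted p = 0.33, edgeR's quasi-likelihood test), which did not pass. With COMMD3 added the value was -0.06 (adjusted p = 0.69). The share of the summed BMI1 and COMMD3-BMI1 counts assigned to the read-through was 17.5% and 26.0% in vector and 30.4% and 40.1% in shCHD7_2. How far the division of reads in the deposited counts sets the fall of BMI1 and the rise of COMMD3-BMI1 was not tested, since no reads were used here.

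**Figure D4:**
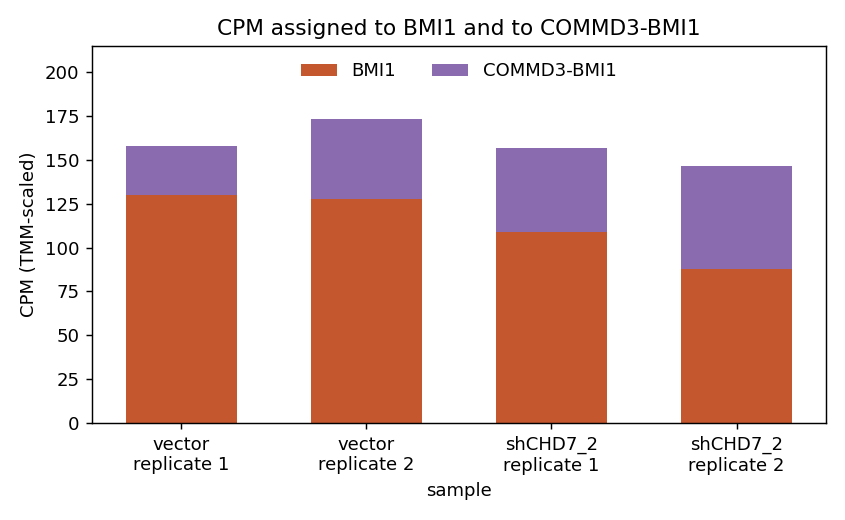
CPM assigned to BMI1 (orange) and to COMMD3-BMI1 (purple), stacked for each sample. The BMI1 segment is shorter and the COMMD3-BMI1 segment longer in the shCHD7_2 samples, and the whole bars, at 157 and 147, lie close to the vector bars at 158 and 173.

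BMI1 and the read-through start from different promoters, which are shown because the counts assigned to them went opposite ways. Both are 300 bases from RefSeq (GRCh38.p14, plus strand), from 250 bases before to 50 after the start, 5′ to 3′, with E-boxes (CACGTG, a site of basic helix-loop-helix factors) in capitals. That of BMI1 is chr10:22320849-22321148, and that of COMMD3-BMI1, which COMMD3 shares, is chr10:22316138-22316437.
BMI1: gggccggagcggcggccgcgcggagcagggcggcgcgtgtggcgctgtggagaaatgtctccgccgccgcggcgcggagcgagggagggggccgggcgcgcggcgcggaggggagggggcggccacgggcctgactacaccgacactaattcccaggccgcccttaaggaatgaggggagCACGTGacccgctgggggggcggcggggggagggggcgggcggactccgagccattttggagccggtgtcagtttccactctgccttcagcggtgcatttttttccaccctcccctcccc
COMMD3-BMI1: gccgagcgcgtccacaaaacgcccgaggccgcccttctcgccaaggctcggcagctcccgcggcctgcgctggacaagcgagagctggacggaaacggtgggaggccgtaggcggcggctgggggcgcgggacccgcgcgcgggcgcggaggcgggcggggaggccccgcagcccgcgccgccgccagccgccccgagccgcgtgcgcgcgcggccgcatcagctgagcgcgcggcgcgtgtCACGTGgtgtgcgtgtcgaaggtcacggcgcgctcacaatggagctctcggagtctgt
Each holds 1 E-box, which is found in 9.62% of 13821 promoters of the genes tested, and the other BMI1 promoter in RefSeq (chr10:22321706-22322005) holds none. Of the 14 promoters of the 10 Polycomb genes, that of BMI1 is the only one with an E-box.

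The same promoters were searched on both strands for sites of cell cycle factors. An E2F site (TTTGGCGC, TTTCCCGC, TTTGCCGC or TTTCGCGC) is in 5 of the 14 promoters, those of EZH1, EZH2, SUZ12, MTF2 and PHF19, beside 5.09% of all promoters. A CHR element (TTTGAA) is in 1, that of SUZ12, beside 10.2%, and a CCAAT box (CCAAT) is in 6, beside 34.9%. RNF2 and RING1 hold none of the 4 motifs. The 5 genes with an E2F site had log2 fold changes between -0.15 and 0.14, and none passed the test. A match describes these letters in this window and is not a measured binding site.

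In the longest 3′ UTR of each gene, 3 words of 7 bases were searched, AGCTATT, then the overlapping word GAAGCTA, then the overlapping word GCTATTA. These words had been picked from a scan against the fold changes of these same samples, so their presence in genes that fell is not independent evidence. They are found in 2 of the 10 Polycomb genes, BMI1 and MTF2, and in 22.3% of 11693 tested genes with a 3′ UTR. The sites are shown with the words in capitals, at chr10:22330768-22330796 for BMI1 and chr1:93138675-93138702 for MTF2, both on the plus strand of GRCh38.
BMI1: tctgaaaataGAAGCTATTtattatgagc
MTF2: attttcccctAGCTATTAatttaaggtt
BMI1 fell and MTF2 did not pass the test, with a positive value. RNF2, which fell, holds none of the 3 words in its 3′ UTR of 2307 bases. The BMI1 site lies beyond the end of COMMD3-BMI1 in GENCODE 29, at 22329542, but before its end in RefSeq, at 22331484. The length that the deposited values imply for the read-through is nearer to that of BMI1 than to that of COMMD3-BMI1-205. Over the tested genes of the 3 lists of complex subunits and regulators described next and the 10 genes here, 7 fell. Of these 6 hold a word, as do 17 of the 55 that did not pass. The words were picked on these same fold changes, so this split is not a test of them. The length of the 3′ UTR was not taken into account.

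Other genes of the complexes were taken from lists of known subunits and regulators. Of 10 other PRC2 genes 9 were listed and tested, and 1 fell, RBBP7, a histone-binding subunit, with 144.9 and 151.0 CPM in vector and 121.1 and 122.5 in shCHD7_2 (log2 fold change -0.28, SE 0.078, adjusted p = 0.019). That is 11.1% of the list, near the 11.5% of all tested genes, and the median of the 9 was -0.19. Without either vector sample RBBP7 no longer passed, and it passed in 6 of 9 alternative settings, not with the replicate block (adjusted p = 0.16). RBBP7 had the highest mean level of this list (72.4 FPKM) and AEBP2 the lowest (5.99 FPKM). Of 33 other PRC1 genes 32 were tested, and 4 fell and 0 rose, or 12.5%, with a median of -0.0088.

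The 4 other PRC1 genes that fell were TFDP1, SCML1, PCGF5 and BCOR. TFDP1, the dimerisation partner of E2F that sits in the variant PRC1 with E2F6, was the only subunit past 1.5-fold, with 141.2 and 133.7 CPM in vector and 86.4 and 81.6 in shCHD7_2 (log2 fold change -0.71, SE 0.081, adjusted p = 2.2e-06). SCML1 (-0.43, adjusted p = 0.0052), a sex comb family protein, PCGF5 (-0.35, adjusted p = 0.0093), a paralogue of BMI1, and BCOR (-0.34, adjusted p = 0.019), the corepressor of the variant with PCGF1, also fell. For each of the 4, both shCHD7_2 samples were below both vector samples. TFDP1 passed in all 4 fits that left out 1 sample, while SCML1, PCGF5 and BCOR no longer passed without vector replicate 2 or without shCHD7_2 replicate 2. Over 9 alternative settings TFDP1 passed in 8, SCML1 in 7, PCGF5 in 4 and BCOR in 3. With the replicate block PCGF5 (adjusted p = 0.067) and BCOR (adjusted p = 0.086) did not pass. In this list SKP1 was highest (136.5 FPKM) and AUTS2 lowest (4.65 FPKM). Of 11 tested genes for removal of ubiquitin from histone H2A, 0 passed edgeR's test, beside 11.5% of all tested genes, and 0 passed that of DESeq2. At an unadjusted p under 0.05 these were 3 and 2, beside at least 2829 of all 11955 genes in edgeR's test. The median of the 11 was -0.04. OGT was highest there (62.3 FPKM) and MBD5 lowest (0.858 FPKM).

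Genes that Polycomb complexes are known to silence were mostly low in all samples. Of 60 such textbook targets, 45 were listed and 37 tested, and 1 fell and 0 rose, or 2.70%. Among all tested genes 11.5% passed, 4.94% higher and 6.54% lower. The 1 was CCND2, a D-type cyclin, with 202.8 and 185.5 CPM in vector and 163.8 and 150.7 in shCHD7_2 (log2 fold change -0.30, SE 0.079, adjusted p = 0.013). CCND2 no longer passed without vector replicate 1 or without shCHD7_2 replicate 2, and it passed in 4 of 9 alternative settings, with an adjusted p of 0.093 under the replicate block. The median of the 37 was -0.08. HOXA9 had the highest mean level (35.2 FPKM), while HOXD12 was listed at 0. E2F-responsive genes, a class that holds EZH2 in other cells, were followed by 25 genes besides it. CCNE1 (0.35, adjusted p = 0.0096), MYBL2 (0.34, adjusted p = 0.012) and RRM2 (0.28, adjusted p = 0.014) rose and TYMS (-0.60, adjusted p = 4.7e-05) fell. That was 16.0% of the list beside 11.5% of all tested genes, and the median of the list was 0.06. TYMS passed without any 1 sample, MYBL2 not without vector replicate 2, CCNE1 not without either vector sample, and RRM2 passed in 1 of the 4 such fits, that without shCHD7_2 replicate 2. Over 9 alternative settings TYMS passed in 8, and CCNE1, MYBL2 and RRM2 in 6 each, of which none passed with the replicate block (adjusted p between 0.072 and 0.11). The highest of these was PCNA (177.9 FPKM) and the lowest E2F2 (3.92 FPKM).

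The genes whose profile over the 4 samples was nearest to that of BMI1 were FAXDC2, FANK1 and CBL, with Euclidean distances of 0.0347, 0.0355 and 0.0377 between centred log2 CPM. Only CBL passed the test (log2 fold change -0.36, adjusted p = 0.0088), with 146, 143, 124 and 101 CPM in the order vector then shCHD7_2. FAXDC2 and FANK1 were low, with between 0.94 and 1.71 CPM in a sample. At that level the 0.5 CPM added before taking logarithms shrinks the differences between samples. Likeness over 4 samples is a description only.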

How the data were processed

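RNA-seq was measured in 2 vector and 2 shCHD7_2 samples of RKO cells. The authors deposited expected counts (estimated counts per gene, not normalized, need not be whole) and FPKM values, normalized by the authors for gene length and depth. The submitters' processing notes name Bowtie2, RSEM, DESeq2 and hg38, and the annotation is not given in the sources used here. Dividing reads between overlapping genes can move counts from one to another.

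The counts were rounded to whole numbers. Totals lay between 15734679 and 16068650 per sample. Low counts were removed by edgeR's filterByExpr (edgeR 4.0.16 in R 4.3.3) and TMM set the library scale. The quasi-likelihood F test was run on the remaining 11955 genes, and p-values were corrected over them by the Benjamini-Hochberg method. A gene passed at an adjusted p under 0.05, and the study's fold threshold of 1.5 was counted besides. CPM use TMM-scaled library sizes, and FPKM the deposited values. The script was tested on simulated counts drawn with the same relative spread for all genes. It recovered 59 of 100 genes changed 1.3-fold and 100 of 100 changed 2-fold. A change of the smaller size can therefore be missed.

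Locations and transcripts come from GENCODE 29 on GRCh38, and promoters from RefSeq (GRCh38.p14), where all 10 genes matched by symbol. Named genes are the 10, CHD7, COMMD3-BMI1, the listed genes past the test (at most 5 a list) with the highest and lowest level of each list, and the 3 profiles nearest to that of BMI1. COMMD3 was added after its values were seen, as were the markers of other cell types that are named. The Polycomb genes and the lists were chosen with earlier results of these data known. Alternatives were DESeq2 1.42.0, its size factors, library totals, other filters, a replicate block, limma 3.58.1 on log2 FPKM, and leaving out each sample. Python 3.11.15 with pandas 2.3.3 and matplotlib 3.10.9 was used for annotation and plots.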

Additional observations from a re-analysis of the deposited data

How the results depend on the processing

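Of the 10 Polycomb genes, 2 passed the test as reported, and 0 passed with a 1.5-fold change in any setting. BMI1 and RNF2 passed with DESeq2's size factors or with at least 1 CPM in 2 samples. With library totals in edgeR 2 also passed, BMI1 and JARID2, and the calls over all genes were 878 higher and 608 lower in place of 591 and 782. The number was 1 with DESeq2's Wald test, the replicate block, and limma on log2(FPKM + 1) or log2(FPKM + 0.1) with a mean FPKM of at least 1, and 0 with no filter on low counts in edgeR or limma. It was 1 with the counts of BMI1 and COMMD3-BMI1, or of these and COMMD3, summed, which were chosen after seeing the data. Leaving out 1 sample, where the lone sample of a group is assumed to vary like the other group, gave between 0 and 2. Over all genes 1373 passed as reported, 800 with DESeq2, 197 with no filter in edgeR, 24 with limma without a filter, and between 610 and 1702 without 1 sample. The related lists held 10 genes past the test, 2 with no filter in edgeR, 0 with limma without a filter, and between 3 and 17 without 1 sample. CHD7 passed except in limma without a filter (-0.51, adjusted p = 0.10). COMMD3-BMI1 passed in 6 of 9 settings, and its adjusted p with DESeq2 was 0.51. Leaving out 1 sample turned the sign of RING1, which lay between -0.104 and 0.154, and of SUZ12, between -0.0293 and 0.186. RING1 was -0.104 without vector replicate 2 and -0.0393 without shCHD7_2 replicate 2, and SUZ12 -0.0293 without shCHD7_2 replicate 1.

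The groups share replicate numbers, but the correlation between same-numbered samples, each taken as its distance from the group mean, was -0.252 over genes, so the numbers were not taken to pair samples. With the replicate block 1 Polycomb gene (BMI1, -0.40, adjusted p = 0.021) and 3 list genes (TFDP1, SCML1 and TYMS) passed, and 755 genes in all in place of 1373. RNF2 had an adjusted p of 0.22. With crossed numbers, chosen after seeing the data, 3 Polycomb genes and 3751 in all passed. The cause of these differences was not tested. Each Polycomb gene held at least 376 counts in a sample, while 8 listed target genes were too low to be tested.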
